A study of Torulaspora delbrueckii with 9 samples.

Results

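The HMLALPHA genes and the SLA2 locus of the budding yeast Torulaspora delbrueckii were examined for peaks of 3 subunits of the origin recognition complex (ORC), mapped by chromatin immunoprecipitation followed by sequencing (ChIP-seq). Both loci lie on chromosome 3 of assembly ASM24337v1. The peaks were those that overlapped by at least 1 bp either of 2 windows, one from position 1260000 to the end of the chromosome, which holds HMLALPHA1 and HMLALPHA2, and one from 1040000 to 1060000, which holds SLA2. Of the 1900 peaks in 6 deposited lists, 34 met this rule, 21 in the HMLALPHA window and 13 in the SLA2 window. Orc1 contributed 21 of the 34 peaks from 2 lists, and Orc2 and Orc4 contributed 13 from 4 lists.

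Orc1 carried a MYC tag in strains LRY3204 (library 1) and LRY3211 (library 2). Orc2 carried a V5 tag in LRY3142 and LRY3143, and Orc4 carried a V5 tag in LRY3138 and LRY3139. All cultures were grown in YPD at 30 °C and cross-linked with formaldehyde. The untagged strain JRY10156 gave 2 genomic input libraries and 1 mock immunoprecipitate. The peak names give an input as the control of the Orc1 lists and a mock as that of the Orc2 and Orc4 lists, but with the strain number 3135 in all 6 lists, which the labels do not explain, so the strain behind each fold enrichment's control is uncertain. Subunit, tag, antibody and kind of control therefore cannot be told apart when Orc1 is set beside Orc2 and Orc4. The names of peaks also hold the word SIR for Orc1 library 1 and Kos3V5 for Orc1 library 2. The labels do not explain these words, so whether the 2 Orc1 strains differ in genotype is not known. The design text describes each subunit's libraries as technical replicates, although their strains have different numbers. The spread between them may therefore be technical or may include a difference between strains.

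Mating type in budding yeasts is set by the genes at the MAT locus. In Saccharomyces cerevisiae, further copies of these genes are stored in the silent cassettes HML and HMR, near chromosome ends, which are kept repressed by Sir proteins recruited at silencers that ORC also binds. The largest ORC subunit, Orc1, is related to the silencing protein Sir3. HMLALPHA1 and HMLALPHA2 are named for the α cassette, in which α1 activates α-specific genes and α2 represses a-specific genes. SLA2 encodes an adaptor between endocytic coats and actin, and it is the neighbour of MAT in Kluyveromyces lactis and many other budding yeasts.

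Over the HMLALPHA genes, Orc1 covered a broad stretch, whereas Orc2 and Orc4 gave narrow peaks. Peaks covered 6.19 kb of the window in Orc1 library 1 and 19.97 kb in Orc1 library 2. They covered 1.06 and 0.754 kb in the Orc2 libraries, and 0.874 and 1.05 kb in the Orc4 libraries. Both Orc1 lists lay above each of the 4 others, and the Orc1 list with less cover had 5.81 times the cover of the highest other list. The means were 13.1 ± 9.75 kb (SD, n = 2) for Orc1 and 0.936 ± 0.149 kb (SD, n = 4) for Orc2 and Orc4, a ratio of 14.0. Over whole lists the ratio of means was 1.45, but Orc1 library 1 had 0.928 times the cover of the highest other list. Orc1 peaks were also wider over whole lists, with median widths of 903 and 884 bp against 573 to 776.5 bp in the Orc2 and Orc4 lists. The difference of 12.1 kb gave an exact permutation p of 0.0667 over the 15 arrangements of 2 and 4 libraries (two-sided). This is the smallest p the design allows, so it cannot pass a threshold of 0.05. The test treats the 6 lists as independent, but the libraries of a subunit may be technical replicates. The 4 Orc2 and Orc4 lists also name a mock as control, and there was 1 mock library. The p and the SDs may therefore not measure spread between independent cultures. The members were also chosen with earlier results of these data known. These limits hold for every permutation p below, and tests within 1 window are not separate support. The size depended on the Orc1 library, with a difference of 5.25 kb without library 2 and 19.0 kb without library 1.

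**Figure D1:**
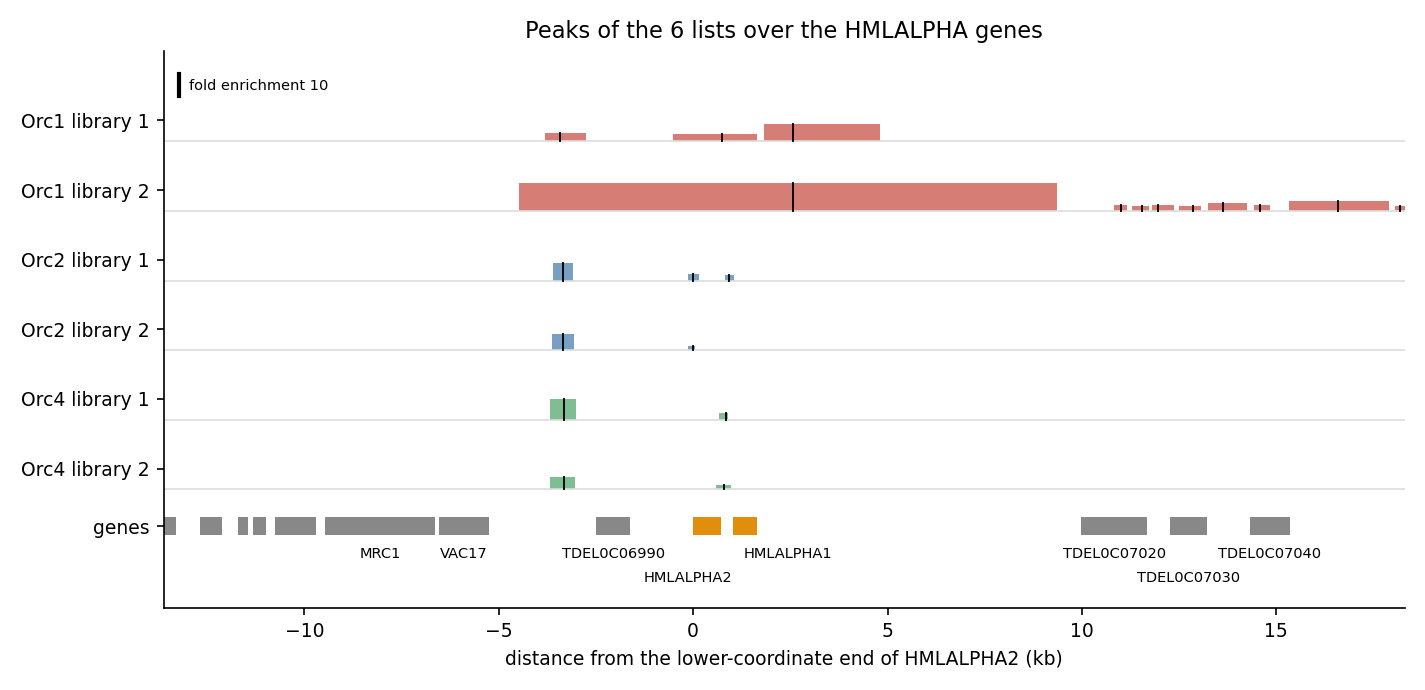
Peaks of each list in the HMLALPHA window, plotted by distance from the lower-coordinate end of HMLALPHA2 in kb. Each box is a peak with its fold enrichment as height and a black line at its summit, each list is relative to its own control, and grey and orange boxes are annotated genes with HMLALPHA2 and HMLALPHA1 in orange. Orc1 library 2 has 1 peak of 13.8 kb across both genes, and the Orc2 and Orc4 lists have narrow peaks to the left of and between them.

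The peak that all lists had in common lay to the left of the mating-type genes. It was placed between VAC17, which encodes an adaptor for vacuole inheritance, and TDEL0C06990. Its summits were at 1270275 and 1270272 in the Orc2 lists and at 1270302 and 1270300 in the Orc4 lists, so the 4 lists fell within 30 bp. Fold enrichment is the authors' ratio of immunoprecipitate to control at the summit, and values of Orc1 (against input) and of Orc2 and Orc4 (against mock) are not comparable as levels. It was 7.74 and 7.40 for Orc2 and 9.54 and 5.66 for Orc4. These were the strongest peaks of the 4 lists in the window. In Orc1 library 1 a peak of 1.06 kb had its summit at 1270192, 80 to 110 bp to the left of those, with a fold enrichment of 3.78. Orc1 library 2 had no separate peak there, since its long peak began at 1269147 and ran over the site.

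Orc2 and Orc4 also had weak, narrow peaks at the mating-type genes. At the lower-coordinate end of HMLALPHA2, both Orc2 lists had a summit, at 1273598 and 1273606, which lay 15 and 7 bp outside the gene, with fold enrichments of 3.13 and 2.02. Neither Orc4 list had a peak there. In the 321 bp between HMLALPHA2 and HMLALPHA1, summits were listed at 1274545 in Orc2 library 1 (2.36-fold), at 1274446 in Orc4 library 1 (3.12-fold) and at 1274415 in Orc4 library 2 (2.19-fold), and none in Orc2 library 2. In S. cerevisiae the corresponding stretch holds the divergent promoters of both genes, and the gene table used here gives no strand. These 5 peaks were 184 to 398 bp wide, and they ranked from 231 of 408 to 225 of 248 in their lists by −log10 q. Orc1 library 1 had a peak of 2.14 kb over both genes, chr3:1273108-1275249, with its summit at 1274345 in the same stretch, 70 to 200 bp from those of Orc2 library 1 and Orc4, and a fold enrichment of 3.35.

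The strongest Orc1 signal of the locus lay to the right of HMLALPHA1, where no other list had a peak. Its summit was at 1276193 in library 1, in a peak of 2.98 kb (chr3:1275429-1278412), and at 1276176 in library 2, in a peak of 13.8 kb (chr3:1269147-1282970). The summits of these libraries were thus 17 bp apart. They were 928 and 911 bp outside HMLALPHA1, and 1648 and 1631 bp from the nearest Orc2 or Orc4 summit. Fold enrichment was 7.60 in library 1, which ranked the peak 133 of 263, and 12.8 in library 2, which ranked it 45 of 300. Both summits fell in an annotated gap of 8.33 kb between HMLALPHA1 and TDEL0C07020, the third longest of 5120 gaps between genes in the table. Orc1 covered 35.8% of this gap in library 1 and 92.5% in library 2, and Orc2 and Orc4 covered none of it in any list.

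The mating-type genes themselves were almost wholly under Orc1 peaks. HMLALPHA2 (chr3:1273613-1274326, 714 bp) was covered over 100% of its length in both Orc1 lists, against 22.8% and 8.54% in the Orc2 lists and 5.32% and 17.4% in the Orc4 lists. HMLALPHA1 (chr3:1274648-1275265, 618 bp) was covered over 97.4% and 100% in the Orc1 lists, against 2.27% and 0% in the Orc2 lists and 0% in both Orc4 lists. For both genes the Orc1 lists did not overlap the others. Of the 13 genes in the window these 2 met the rule that both Orc1 lists cover more of a gene than each other list, while 2.01% of all 5174 genes did. The difference of means was 86.5 percentage points for HMLALPHA2 and 98.1 for HMLALPHA1, each with an exact permutation p of 0.0667 over 15 arrangements, the smallest possible. Both genes lie in the window tested above, and the same lists separate there, so these p-values add no support to that of the window.

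On either side of this stretch the Orc1 libraries differed. TDEL0C06990 (chr3:1271111-1272001) was covered over 100% in library 2 and 0% in library 1, where a gap without peaks of 2.24 kb separated the peak beside VAC17 from that over the mating-type genes. To the right, library 1 had no peak beyond 1278412. Library 2 had 8 further peaks beyond its long one, from 1284428 to 1291916, with fold enrichments of 2.27 to 4.40, which covered 42.7% of TDEL0C07020, 68.8% of TDEL0C07030 and 43.7% of TDEL0C07040. These 3 genes had no Orc2 or Orc4 peak. The last of them ends at 1288953, and 1291916 is the last position of any peak, which was taken as the end of the chromosome. The other flank was bare in all lists: the 7 genes from TDEL0C06920 to VAC17 had no peak over them in the 6 lists.

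**Figure D2:**
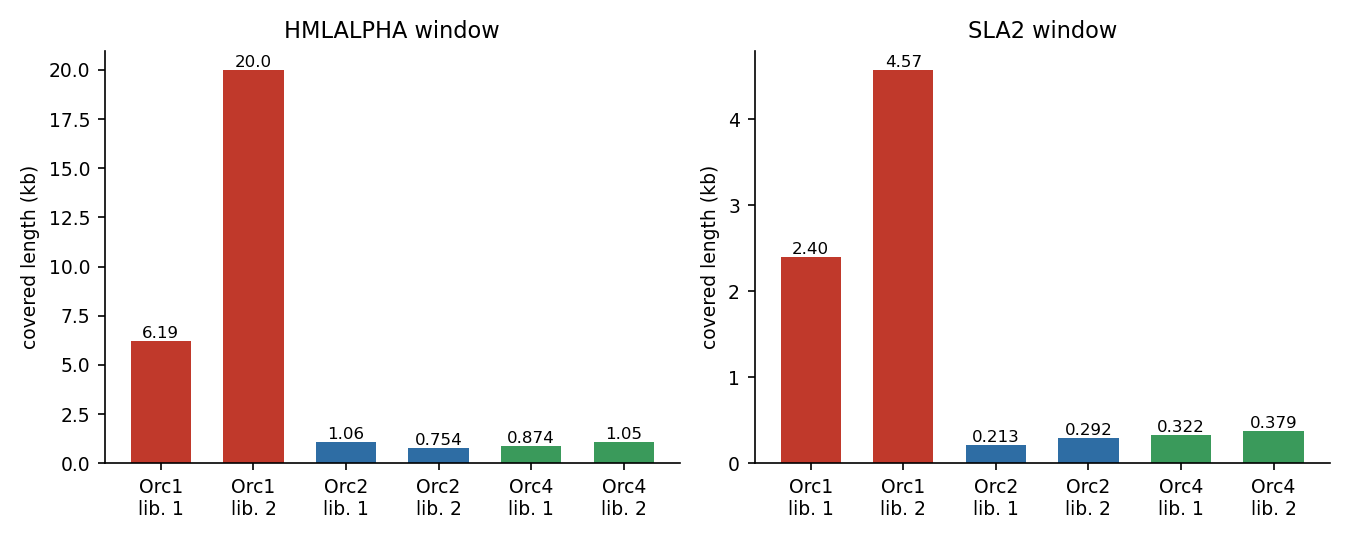
Length under peaks in kb for each list in the HMLALPHA window (left) and the SLA2 window (right), as bars from 0 with the value above. Both Orc1 lists exceed the 4 other lists in both windows, and Orc1 library 2 exceeds library 1.

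Orc1 library 2 covered more than library 1 over the whole genome as well. Over whole lists, Orc1 library 2 covered 1.46 times as much as library 1 (386 against 265 kb), whereas in the HMLALPHA window it covered 3.23 times as much. As a share of all the length a list covered, the window held 2.34% and 5.17% of the Orc1 lists, against 0.492% and 0.362% of the Orc2 lists and 0.306% and 0.567% of the Orc4 lists. The window makes up 0.346% of the chromosomes' length. The difference in share was 3.32 percentage points (exact permutation p = 0.0667 over 15 arrangements, the smallest possible), or 1.90 points without Orc1 library 2.

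More cover by Orc1 than by the other subunits was usual for a chromosome end of this length. Of the 16 ends, each taken over 31.9 kb, 14 (87.5%) had more cover in both Orc1 lists than in each other list, and the exceptions were the left ends of chromosomes 3 and 5. The HMLALPHA end was therefore like most ends in direction. In size it was among the highest: its Orc1 mean of 13.1 kb was the second of 16, after the left end of chromosome 2 with 13.6 kb, and the median end had 6.10 kb. It ranked 1 of 16 in Orc1 library 2 and 5 of 16 in library 1. The Orc2 and Orc4 lists placed it from 9th to 13th of 16, so the end did not stand high in them.

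**Figure D3:**
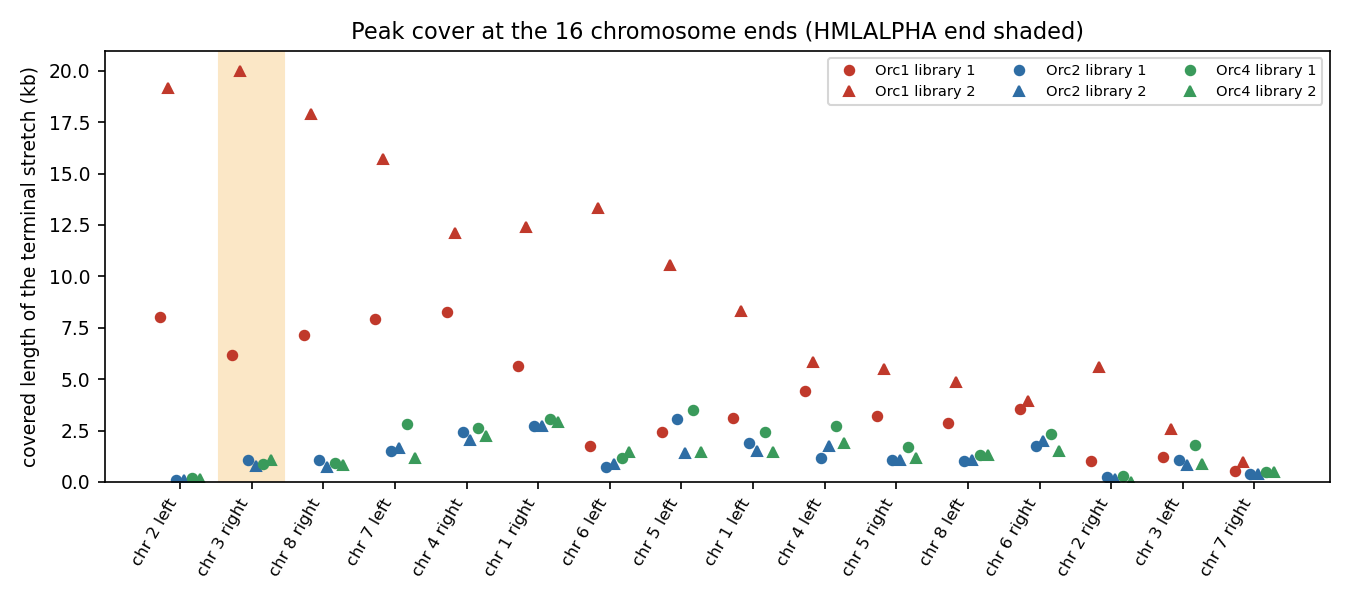
Covered length in kb of the terminal stretch of each chromosome end, ordered by the Orc1 mean, with circles for library 1 and triangles for library 2 of each subunit. The shaded HMLALPHA end has Orc1 values of 6.19 and 19.97 kb and Orc2 and Orc4 values of 0.754 to 1.06 kb, and Orc1 lies above the other lists at 14 of 16 ends.

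Beside SLA2, 239 kb from the end of the chromosome, Orc1 had peaks in both libraries and Orc2 and Orc4 had none. Within the window, peaks covered 2.40 kb in Orc1 library 1 and 4.57 kb in Orc1 library 2, against 0.213 and 0.292 kb in the Orc2 lists and 0.322 and 0.379 kb in the Orc4 lists. The means were 3.48 ± 1.53 kb (SD, n = 2) for Orc1 and 0.302 ± 0.0692 kb (SD, n = 4) for the others. The difference of 3.18 kb had an exact permutation p of 0.0667 over 15 arrangements, the smallest possible, and was 2.10 kb without Orc1 library 2. All of the Orc2 and Orc4 cover came from the left part of 1 peak at the border of the window. Without that peak, Orc1 covered on average 3.06 kb and the 4 other lists 0 kb, a comparison added after the values had been seen.

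The peak at the border was common to all 6 lists and lay between JJJ3, named for a J-domain protein, and RPA49, which encodes a subunit of RNA polymerase I. Its summits were at 1060105 and 1060130 in the Orc1 lists, at 1060261 in both Orc2 lists, and at 1060231 and 1060235 in the Orc4 lists. Fold enrichment was 8.05 and 12.6 in the Orc1 lists (over input). Over mock it was 20.4 and 21.6 in the Orc2 lists, with 21.7 and 16.2 in the Orc4 lists. In each Orc1 list this peak was stronger by −log10 q than any peak beside SLA2. It ranked 77 of 263 and 47 of 300, while the peak at SLA2 ranked 143 and 98.

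The peak at SLA2 had nearly the same place in both Orc1 libraries. It spanned chr3:1050773-1051886 in library 1 and chr3:1050693-1051897 in library 2, with widths of 1114 and 1205 bp, above the median peak widths of these lists, 903 and 884 bp. Summits were at 1051408 and 1051429, 21 bp apart and 148 and 169 bp inside the annotated SLA2 gene (chr3:1051260-1052435, 1176 bp). Fold enrichment was 5.54 in library 1 and 10.0 in library 2. The peak covered 53.3% and 54.3% of SLA2, the 108 bp between SLA2 and TDEL0C05820 in full, and 94.8% and 100% of TDEL0C05820 (chr3:1050752-1051151). No Orc2 or Orc4 peak touched either gene. The nearest one began 7736 and 7725 bp from the end of the Orc1 peaks.

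**Figure D4:**
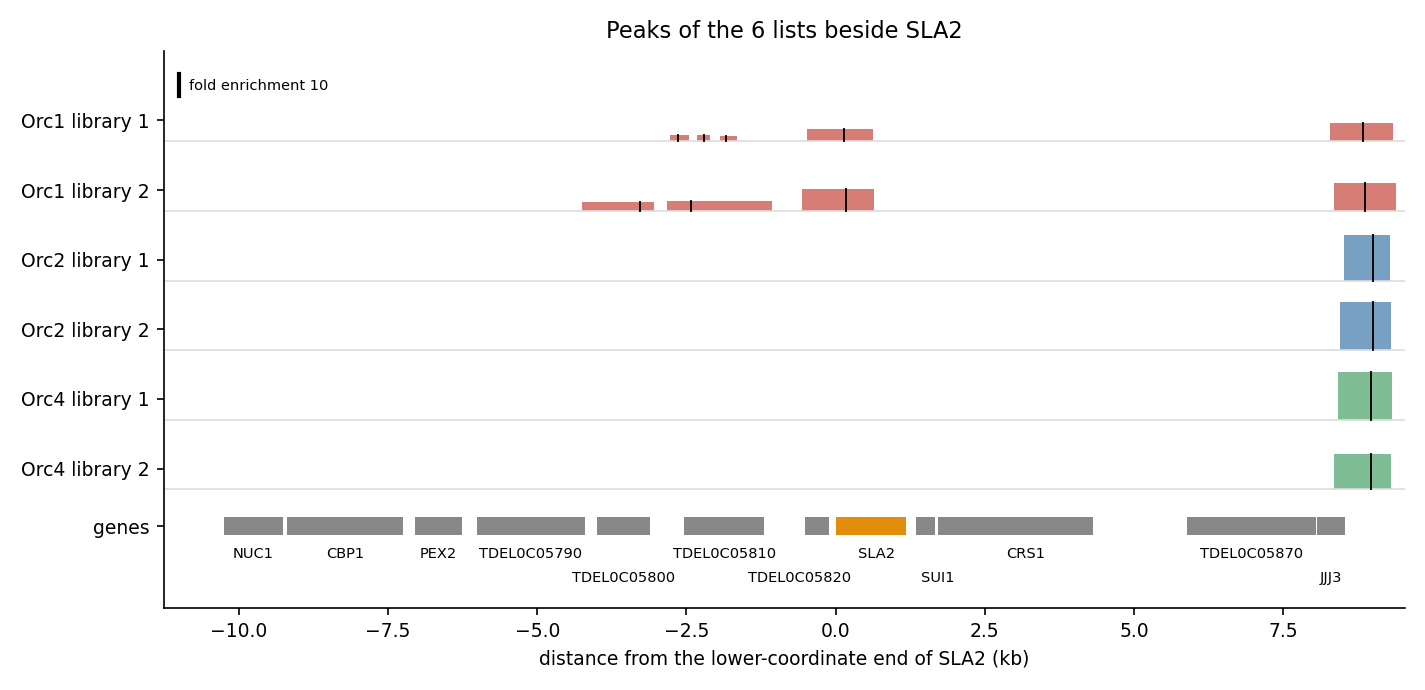
Peaks of each list in the SLA2 window, plotted by distance from the lower-coordinate end of SLA2 in kb, with fold enrichment as height and a black line at each summit. The Orc1 lists have peaks over SLA2 and the genes to its left, the Orc2 and Orc4 lists have none there, and all 6 lists have the peak beside JJJ3 at the right border.

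Weaker Orc1 cover went on to the left of SLA2. In library 1 it consisted of 3 peaks of 218 to 328 bp over and beside TDEL0C05810 (chr3:1048723-1050060), with fold enrichments of 2.34 to 2.91, which covered 44.4% of that gene. In library 2, 1 peak of 1.76 kb at 4.65-fold covered all of TDEL0C05810, and a second of 1.20 kb at 3.82-fold covered all of TDEL0C05800 and the edge of TDEL0C05790. Library 1 had no peak over those 2 genes. The 3 genes further left had no peak over them in any list. To the right of SLA2, the translation initiation factor gene SUI1 and the 3 genes after it had none either, so cover beyond SLA2 was seen on 1 side of it.

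Among the 13 genes of the SLA2 window, 4 had more cover in both Orc1 lists than in each other list, namely SLA2, TDEL0C05820, TDEL0C05810 and JJJ3, against the 2.01% of all genes given above. For JJJ3 all 6 lists had cover, 53.3% and 41.3% for Orc1 against 3.33% to 37.9% for the others, from the peak at the border. A stricter rule asked for at least 50% of a gene in both Orc1 lists and 0% in the 4 others. SLA2, with 53.3% and 54.3%, passed by a narrow margin. It and TDEL0C05820 were called, as were 0.213% of all genes, which is 11 of 5174. HMLALPHA2 was not, because of the narrow Orc2 and Orc4 peaks at it. HMLALPHA1 was not because of 1 peak of Orc2 library 1, which covered 2.27% of it and ranked 261 of 339 in its list by −log10 q. Its cover was 0% in Orc2 library 2 and in both Orc4 lists.

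Few windows of 20 kb away from the chromosome ends had as much Orc1 cover as the SLA2 window. More cover in both Orc1 lists than in each other list was found in 7.78% of 424 consecutive windows of 20 kb that lay over 40 kb from an end. By the size of the difference in mean cover the SLA2 window was the third of these 424. The 2 above it adjoined each other at 40001 to 80000 on chromosome 5, with differences of 5.33 and 11.01 kb, and the window after it had 0.709 kb. In Orc1 library 2, 1 peak (chr5:47972-79521) ran across both of those on chromosome 5. They hold TDEL0E00330, a gene of 400 bp like TDEL0C05820 beside SLA2, described below. A further gene of that length, TDEL0G00190, lay 36.3 kb from an end, so it was outside the windows counted. As a share of all covered length, the SLA2 window held 0.906% and 1.18% of the Orc1 lists, against 0.0984% to 0.204% of the others, for 0.217% of the chromosomes' length. That difference was 0.905 percentage points (exact permutation p = 0.0667 over 15 arrangements, the smallest possible).

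Orc1 peaks so far from any Orc2 or Orc4 peak were few in the interior. Of the interior peaks of Orc1 library 1, 16 of 212 (7.55%) were over 5 kb from each Orc2 and Orc4 peak, and 4 of these 16 were in the SLA2 window. Of the 4, 3 were short (218 to 328 bp) and lay where library 2 listed 1 peak of 1.76 kb. They may therefore not be separate sites. In library 2, 15 of 210 interior peaks (7.14%) were over 5 kb away, of which 3 were in the window. The SLA2 peak had the highest fold enrichment of these peaks in library 2 (10.0), ahead of a peak at chr8:507645-507997 with 6.76. In library 1 it was second, with 5.54 against 6.02 for the peak at chr8:507696-508001.

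Genes elsewhere were compared with the members by the mean absolute difference in covered percent over the 6 lists. The 3 genes most like HMLALPHA1 were TDEL0B00100 (chromosome 2), TDEL0G00190 (chromosome 7) and TDEL0E00330 (chromosome 5). Each was 100% covered in both Orc1 lists and 0% in the others, at 0.809 percentage points from HMLALPHA1, and they were followed by TDEL0B00110 at 2.07 and TDEL0D06610 at 2.42 points. The same 5 genes were closest to HMLALPHA2, at 9.01 to 11.5 points. In the order given they lay 3.73, 36.3, 75.8, 6.44 and 21.3 kb from a chromosome end, and HMLALPHA1 lay 16.7 kb from its end. For SLA2 the closest was FRE4, named for a ferric reductase, with 70.4% in both Orc1 lists and 0% in the others, at 5.54 points. TDEL0H04530, TDEL0H00110, TDEL0F00150 and HSP30, which encodes a stress-induced membrane protein, followed at 7.99 to 9.39 points. FRE4 and these genes lay 24.5, 8.30, 2.13, 12.1 and 194 kb from a chromosome end, in that order, against 239 kb for SLA2. TDEL0F00150 had cover in Orc1 library 2 alone (54.5%), so likeness to SLA2 was already loose at that place.

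The SLA2 locus and 2 of these genes had annotated lengths in common, which was noticed after the values had been seen. TDEL0C05820 beside SLA2, TDEL0E00330 and TDEL0G00190 are each 400 bp long, and no other gene of the 5174 has that length. Each has a neighbour of 1338 bp, namely TDEL0C05810, TDEL0E00340 and TDEL0G00200, at 691 bp on chromosome 3 and at 685 bp on chromosomes 5 and 7. A length of 1338 bp is shared by 11 genes in all. The gene table gives these genes no names, and no genome sequence was used here, so neither the likeness of their sequences nor the sharing of reads between them was tested. Alignment can split reads among near-identical copies, so the Orc1 values beside SLA2 are uncertain to that extent. The same holds for the HMLALPHA genes and any further copy of them, although the table has 1 gene of each name and none named for MAT or HMR.

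The 400 bp genes on chromosomes 5 and 7 were found by their cover, full in both Orc1 lists and absent in the others, and TDEL0C05820 by its place under the SLA2 peak, so this pattern at the 400 bp genes is a description fixed by that choice. No Orc2 or Orc4 peak lay over the 1338 bp genes, which were found by their place. Such absence is common, since 78.1% of all genes had no peak of any list within 1000 bp. The Orc1 cover of the 1338 bp genes is not independent of the choice either, because they lie beside genes found under Orc1 peaks. The 400 bp genes were covered over 94.8% and 100% beside SLA2 and over 100% in both Orc1 lists on chromosomes 5 and 7. The 1338 bp genes were covered over 44.4%, 25.2% and 39.8% in Orc1 library 1 (chromosomes 3, 5 and 7), and over 100% in library 2 at each locus. The strongest Orc1 summit at the chromosome 7 pair was 162 and 165 bp outside the 400 bp gene, on the side away from the 1338 bp gene, with fold enrichments of 12.1 and 12.5. Beside SLA2 it was on the same side, at 257 and 278 bp. On chromosome 5, the library 1 summit was 1096 bp out on that side at 17.6-fold, and library 2 had a single peak of 31.6 kb with its summit 23.9 kb away.

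The loci differed in Orc2 and Orc4. On chromosome 5 these lists had a strong peak 1236 to 1273 bp outside the 400 bp gene, with fold enrichments of 31.0 and 30.4 for Orc2 and 33.4 and 23.6 for Orc4. On chromosome 7, Orc2 gave 1.64 and 2.07 and Orc4 library 1 gave 2.997 at 659 to 733 bp, and Orc4 library 2 had no peak. These were weak: by −log10 q the Orc2 peaks ranked 339 of 339 and 298 of 342, and the Orc4 peak 237 of 408. A weak peak and an unlisted one are thus little apart. Beside SLA2 no list of Orc2 or Orc4 had one. Distance from the end also differed, being 241 kb on chromosome 3, 75.8 kb on chromosome 5 and 36.3 kb on chromosome 7.

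**Figure D5:**
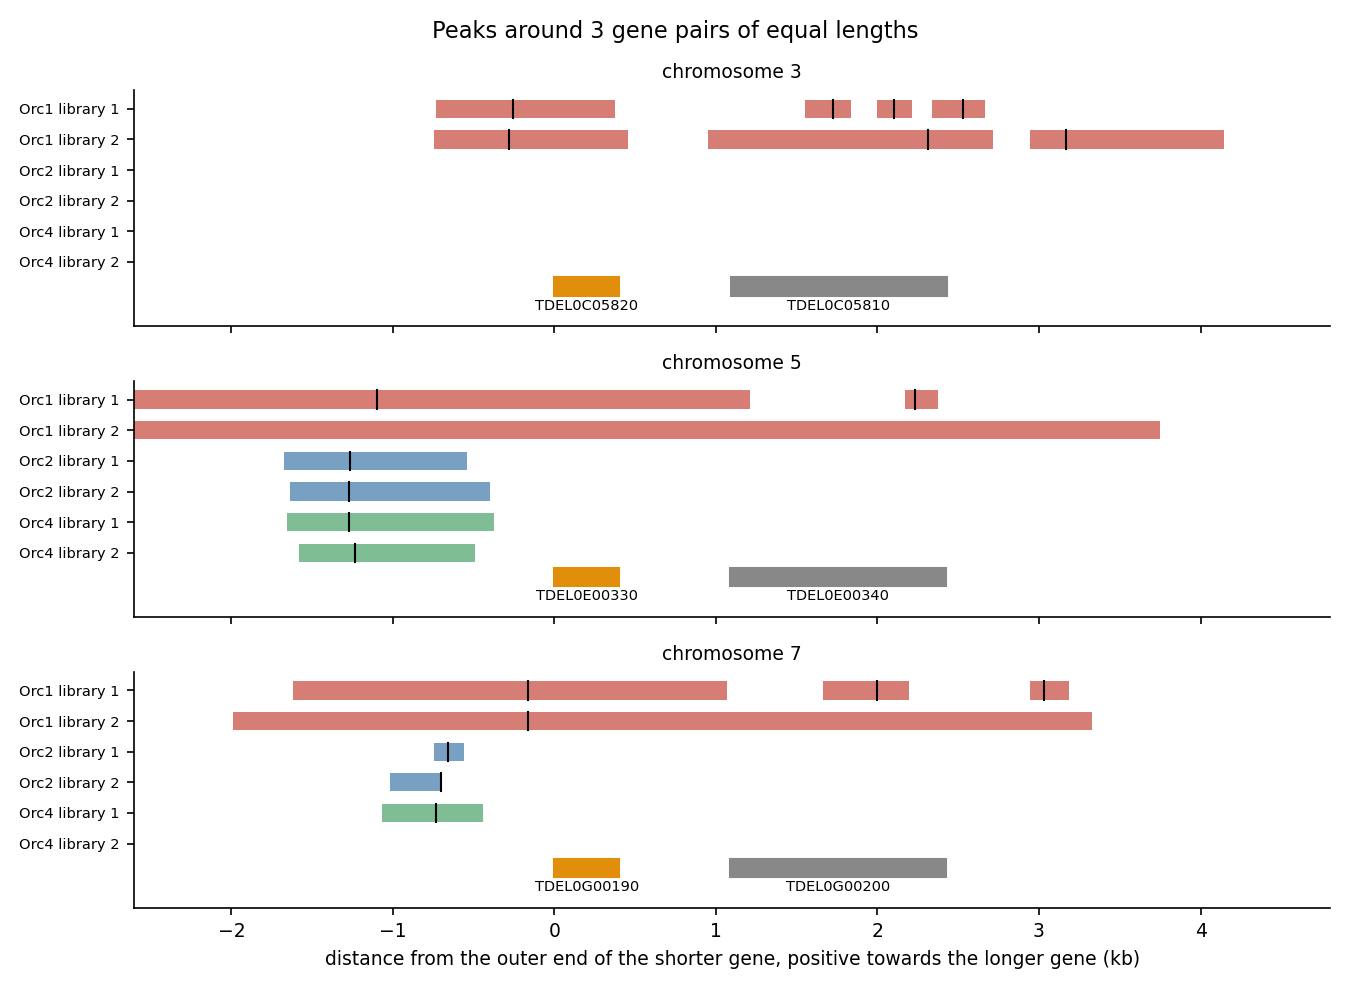
Peaks (boxes) and summits (black lines) of each list around the gene pairs of 400 bp (orange) and 1338 bp (grey) on chromosomes 3, 5 and 7, by distance in kb from the outer end of the 400 bp gene, with chromosome 3 turned round so that the longer gene is to the right. Orc1 lies over the 400 bp gene at all 3 loci, while Orc2 and Orc4 peaks occur to its left on chromosomes 5 and 7 and are absent on chromosome 3.

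Genes of mating and of mating-type control were near peaks about as often as genes in general. Of a list of 58 symbols, 47 matched a gene of the table, HMLALPHA1, HMLALPHA2 and SLA2 among them. A peak within 1000 bp in both Orc1 lists was found for 5 of the other 44 (11.4%), against 11.2% of all genes. For all 4 Orc2 and Orc4 lists the count was also 5 of 44 (11.4%), against 10.8% of all genes. A peak in both Orc1 lists with none in the other 4 was found for 0 of the 44, against 0.850% of all genes, and for SLA2 among the members. The genes near a peak of all 6 lists, besides HMLALPHA1 and HMLALPHA2, were MCM1, whose product is a partner of α1 and α2 in S. cerevisiae, BAR1, which encodes the protease that degrades α-factor, AGA2, a subunit of a-agglutinin, and IME1, an inducer of meiosis.

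All 3 subunits were listed within 1000 bp of these genes. Near MCM1 the highest fold enrichments over input were 8.56 and 13.0 in the Orc1 lists, and those over mock were 34.3 and 33.9 in the Orc2 lists and 51.5 and 31.6 in the Orc4 lists. The MCM1 gene itself was covered over 8.40% in Orc1 library 1 and 0% in the other lists. BAR1 had 8.37 and 9.31 in the Orc1 lists, with 16.9 to 21.2 in the 4 other lists. AGA2 had 2.74 and 3.83 in the Orc1 lists, with 9.34 to 14.5 in the others. The AGA2 gene was itself under peaks over at least 47.5% of its length in all 6 lists. IME1 had 2.10 and 2.55 in the Orc1 lists, with 3.23 to 6.82 in the others. KAR4, which encodes a transcription factor of mating and lies to the left of the HMLALPHA window, had a peak within 1000 bp in both Orc1 lists (8.31 and 12.2) and in Orc4 library 2 (10.2), and the nearest peaks of the other 3 lists lay 1017 to 1039 bp away. SAG1, the gene of α-agglutinin, was near a peak of all 4 Orc2 and Orc4 lists (3.36 to 5.94) and of no Orc1 list. No list had a peak within 1000 bp of 35 of the 44 genes (79.5%), among them HO, STE2, STE3, GPA1 and STE12, and the same was true of 78.1% of all genes.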

How the data were processed

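The submitters' processing notes name MACS2 2.2.7.1, cutadapt 2.10 and Bowtie2 2.3.4.1. Genome build, settings and treatment of multi-mapping reads were not given in the sources used here. Each of the 6 deposited lists holds 1 library. The fold enrichment ratio, the −log10 p and −log10 q values and the score are the authors' deposited values, and the score was not analysed. The lists give no read counts, so depth is unknown. The only measure of precision is the spread between the 2 libraries of a subunit, which may be technical. Peak width can change with depth and control.

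Sequence names were taken as chromosomes 1 to 8 of ASM24337v1. On the chromosome of the same number, 65.5% to 76.3% of summits lay outside genes, against at most 36.5% on any other. Genes are from the RefSeq table of that assembly. Positions are 1-based.

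Covered length is the union of peaks cut at the window borders, computed with Python 3.11.15 and numpy 2.4.6. Means over libraries were compared by exact two-sided permutation of the 6 libraries. The functions were tested on simulated data. Named genes were those of the windows with a peak over them or within 1000 bp, mating genes near a peak in both Orc1 lists or all 4 others, and the 5 genes closest to each member; some mating genes without peaks were also named, after their values had been seen. The members and lists were chosen with earlier results of these data known. Alternatives were peak filters, window borders, the reference lists and leaving out each list. A comparison of proteins and DNA between the loci was not run, since no sequences were used here.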

Additional observations from a re-analysis of the deposited data

How the results depend on the processing

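The differences in covered length and in share kept their sign under every alternative run, and no p-value could pass 0.05 in this design, so the p-values say nothing about stability. Without each library in turn, the difference in covered length was 5.25 to 19.0 kb in the HMLALPHA window and 2.10 to 4.27 kb in the SLA2 window. Over the other settings it was 10.7 to 12.9 kb and 2.77 to 3.23 kb. Over all alternatives the shares moved between 1.90 and 4.74 percentage points and between 0.766 and 1.04. With the replicate block, in which labels were exchanged only among libraries of the same number, the differences of 12.1 and 3.18 kb and of 3.32 and 0.905 percentage points were the same by construction, and the exact permutation p was 0.111, the smallest of 9 arrangements. The numbers were not shown to pair libraries: differences between library 1 and library 2 correlated between subunits at r of −0.01, −0.08 and −0.004 over 456 windows of 20 kb. Genes with more Orc1 cover numbered 2 to 6 in the HMLALPHA window when a library was left out, 6 being the count without Orc1 library 1. By the rule of at least 50% in Orc1 and 0% in the others, 0 genes were called in that window and 2 in the SLA2 window. Of all genes 11 were called, fewer because the rule is stricter. The lists hold no depth, so the absence of an Orc2 or Orc4 peak says only that none was listed.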

Other observations

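A further length was shared between the loci. TDEL0C05800, to the left of the SLA2 locus, and TDEL0C06990, to the left of HMLALPHA2, are both 891 bp long, a length that 11 of 5174 genes have. Each was covered over 100% in Orc1 library 2 and 0% in Orc1 library 1, and over 0% in the 4 Orc2 and Orc4 lists. On chromosomes 5 and 7, the neighbour of the 400 bp gene on its outer side is a tRNA gene of 74 bp, TDEL0Etrna12V at 692 bp and TDEL0Gtrna5V at 691 bp, whereas on chromosome 3 it is SLA2, at 108 bp. These lengths were looked at after the peaks had been seen, and sequence likeness was not tested.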
